A study of Anopheles dirus with 6 samples.

Results

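To describe the well expressed genes with lower values after larval exposure to *L. sphaericus*, 70 of the 13250 gene IDs listed for adult female *An. dirus* were examined. They were selected by the readout itself. An ID was taken if it stood in exactly 1 row of the deposited table, was not among the 100 such IDs with the highest AdCtrl24h mean, and had a mean of at least 10 over the 6 libraries. In addition, all 3 AdBs24h values had to lie below all 3 AdCtrl24h values, and the AdCtrl24h mean had to be at least 1.4 times the AdBs24h mean. The lower level in AdBs24h is therefore the condition of selection and not a result, and it is given below as a description without a test.

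Whole female mosquitoes of the Hainan strain were sequenced in 2 groups of 3 samples. AdBs24h females had survived a sublethal dose of the 2362 strain as larvae and were then reared like the controls, whereas AdCtrl24h females came from larvae without the bacterium. In both groups RNA was taken 24 h after a blood meal, from a pool of 30 mosquitoes per sample, and the samples are described as independent biological replicates. Bs in the group name stands for *Bacillus sphaericus*, an older name of the species, and the sources differ on the larval instar at exposure. Since each pool holds whole insects, fewer cells of a type and less RNA per cell cannot be told apart, and the labels name no cell type to check. Values are in TPM, in which each ID is given as its part of 1000000 transcripts. The table names no unit, and TPM was taken from the methods. Listed values summed to 497690 to 520670 TPM in AdBs24h and 511952 to 524312 TPM in AdCtrl24h, and thus fell well short of 1000000. Why they fell short was not tested, and shares of listed TPM below refer to these smaller sums.

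*Lysinibacillus sphaericus* is a spore-forming bacterium whose toxins bind to the midgut of mosquito larvae and destroy its cells. A female *Anopheles* mosquito needs vertebrate blood to produce eggs. In the hours after the meal the midgut digests blood proteins, and the fat body synthesizes vitellogenin, the yolk precursor that the oocytes take up. The deposited table does not pair its IDs with gene names, so the roles of the individual members are not known here and no sequence is shown. Gene lists were not counted for the same reason.

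Of the 13077 IDs in a single row, 3546 passed the level condition outside the 100 highest. Among these, AdBs24h lay entirely below AdCtrl24h for 384 IDs (10.8%) and entirely above it for 337 IDs (9.5%). The 70 members made up 1.97% of the 3546 IDs and 18.2% of the 384. The mirrored rule, with AdBs24h entirely above and a ratio of at least 1.4 in the other direction, took 63 IDs (1.78%). The counts in the 2 directions were thus of like size. A ratio of at least 1.4 without the condition on overlap was met by 122 IDs, of which 52 had overlapping groups and were not members. In the other direction 95 IDs met such a ratio, overlapping or not.

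**Figure D1:**
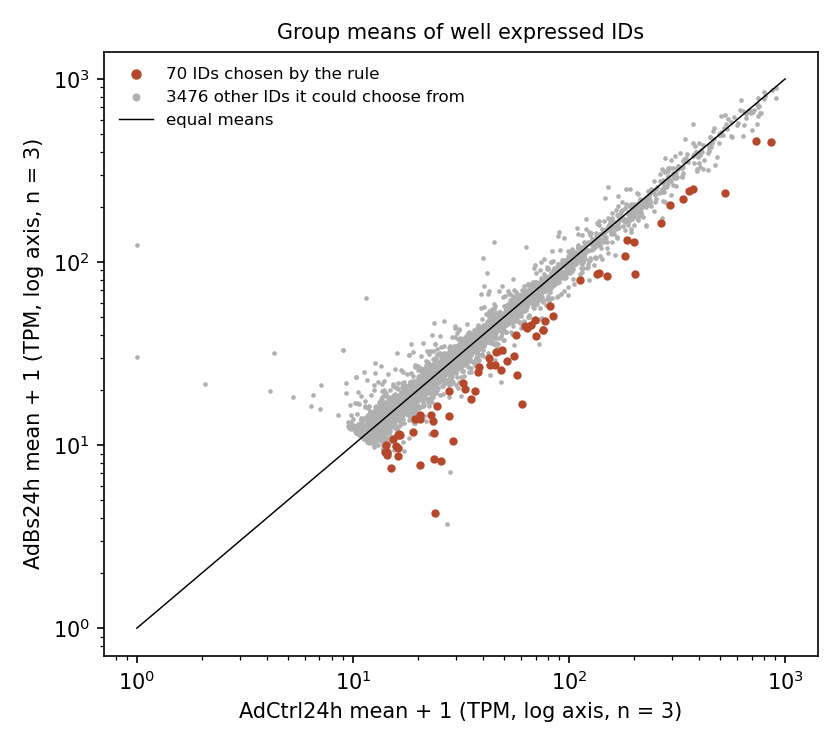
Mean level of each ID in AdBs24h (vertical axis) against AdCtrl24h (horizontal axis), both in TPM plus 1 on log axes with n = 3 per group, for the 70 members and the 3476 other IDs the rule could choose from. The members lie under the line of equal means over the whole range of levels, with AdCtrl24h means of 13.0 to 859.7 TPM.

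The members covered a wide range of levels. Their group means ran from 3.26 to 457 TPM in AdBs24h, with a median of 25.3 TPM, and from 13.0 to 859.7 TPM in AdCtrl24h, with a median of 43.4 TPM. By the mean of all 6 libraries, 25 members lay at 10 to 20 TPM, 19 at 20 to 50 TPM, 11 at 50 to 100 TPM and 15 at 100 TPM or more. These are 2.06%, 1.44%, 2.06% and 3.15% of the IDs the rule could choose from in each band. The mirrored rule took 2.55%, 1.29%, 1.69% and 1.26% in the same bands, so that 15 members but only 6 of its 63 IDs reached 100 TPM. The difference between the shares was not tested.

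Most of the ratios were moderate. The ratio of the AdCtrl24h mean to the AdBs24h mean had a median of 1.61 and ran from 1.403 to 7.05. It lay between 1.4 and 1.5 for 24 members, between 1.5 and 2 for 34, and at 2 or more for 12. On the log2(TPM + 1) scale, on which differences of weakly expressed IDs come out too small, the median difference of AdBs24h minus AdCtrl24h was -0.68 over the 70 members (quartiles -0.89 and -0.55), against 0.00325 over all 3546 IDs. That the members lie away from the other IDs follows from the rule.

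Together, the members summed to 4866, 3871 and 3764 TPM in AdBs24h replicates 1, 2 and 3, and to 6481, 7854 and 6709 TPM in the AdCtrl24h replicates. The group means of this sum were 4167 ± 608 TPM in AdBs24h and 7014 ± 736 TPM in AdCtrl24h (SD, n = 3 each). As a share of all listed TPM, the members held 0.813 ± 0.109% in AdBs24h and 1.35 ± 0.138% in AdCtrl24h (SD, n = 3 each). AdBs24h replicate 1 was the highest of its group and AdCtrl24h replicate 2 the highest of the controls. The 10 members with the highest AdCtrl24h means carried 58.5% of the sum in AdBs24h and 59% in AdCtrl24h, and the difference between the groups was spread in about the same way, with 59.8% of it in these 10 members.

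The member with the highest AdCtrl24h mean was also the one with the largest difference in TPM, and ranked 16 by ratio. It was listed at 558, 347 and 447 TPM in AdBs24h and at 712, 1004 and 863 TPM in AdCtrl24h. Replicate 1 was the highest exposed library and the lowest control library, so the groups were closest there and did not overlap. The means were 451 ± 106 TPM in AdBs24h and 859.7 ± 146 TPM in AdCtrl24h (SD, n = 3 each), a log2 difference of -0.94. When 1 library at a time was left out, this difference ran from -1.11 to -0.77.

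In total 16 members had an AdCtrl24h mean of 100 TPM or above, and their ratios ran from 1.403 to 2.37. The second highest by AdCtrl24h mean was listed at 540, 455 and 374 TPM in AdBs24h, against 726, 852 and 612 TPM in AdCtrl24h, a ratio of 1.60. The third highest was listed at 384, 124 and 207 TPM in AdBs24h, against 397, 665 and 521 TPM in AdCtrl24h. Its ratio of 2.22 came with a gap of only 1.03 times between AdBs24h replicate 1 and AdCtrl24h replicate 1. The member of rank 4 by AdCtrl24h mean was listed at 283, 197 and 267 TPM in AdBs24h, against 423, 358 and 335 TPM in AdCtrl24h, a ratio of 1.5. The member of rank 5 was listed at 280, 192 and 258 TPM in AdBs24h, against 321, 382 and 370 TPM in AdCtrl24h, a ratio of 1.47. AdBs24h replicate 2 was the lowest exposed library for the members of rank 3, 4 and 5. The largest ratio in this set, 2.37, belonged to the member of rank 9, with 79.7, 105 and 70.7 TPM in AdBs24h and 155, 223 and 226 TPM in AdCtrl24h. AdBs24h replicate 1 was the highest exposed library for 14 of these 16 members.

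The largest ratios were found among members of low or middle level, where most members lay. Only 16 of all 70 members had an AdCtrl24h mean of 100 TPM or above, and the median was 43.4 TPM. Of the 12 members with a ratio of at least 2, 10 had an AdCtrl24h mean under 100 TPM and 8 a mean under 50 TPM. The coefficient of variation (SD over mean) in AdBs24h was at least 50% for 7 of these 12 members, against 2 of the others. ADIR015310 had the largest ratio, 7.05, and was listed at 0, 6.96 and 2.82 TPM in AdBs24h and at 35.0, 7.25 and 26.7 TPM in AdCtrl24h. Its AdCtrl24h replicate 2 almost touched AdBs24h replicate 2, while the other control libraries were well above. Without AdBs24h replicate 1 its log2 difference was -1.87, and without AdBs24h replicate 2 it was -3.37, against -2.69 with all libraries. ADIR005037, with the second largest ratio of 3.75, was listed at 24.98, 22.5 and 0 TPM in AdBs24h and at 37.7, 89.7 and 50.9 TPM in AdCtrl24h. Its log2 difference of -2.74 was -1.20 without AdBs24h replicate 3, the library listed at 0.

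In total 4 members, all with a ratio of at least 2, were listed at 0 in 1 library each, 1 in AdBs24h replicate 1 and 3 in AdBs24h replicate 3. They are 5.71% of the members, against 0.705% of all 3546 IDs (25 IDs) and 4.76% of the mirrored set (3 IDs). The 2 of these not named above were listed at 20.04, 8.75 and 0 TPM and at 33.0, 36.5 and 0 TPM in AdBs24h, against 25.8, 26.6 and 31.7 TPM and 47.7, 71.0 and 51.1 TPM in AdCtrl24h. Over all 3546 IDs, the libraries held 6, 4 and 11 zeros in AdBs24h (replicates 1 to 3) and 6, 7 and 4 zeros in AdCtrl24h. With the added condition of at least 10 TPM in the other 5 libraries, 11 IDs were left, 7 of them at 0 in AdBs24h replicate 3, and 2 of these 7 were members. By the rule, a 0 in AdBs24h raises the ratio of an ID, and a 0 in AdCtrl24h bars it from the members. The share of members listed at 0 therefore depends in part on the selection. A listed 0 can also be a failed estimate, and its part in the ratios of these 4 members was not tested. Without the 4 members the median log2 difference was -0.67, close to the value of all 70.

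Compared with the other members, a few were even within AdBs24h or within both groups. The member with the third largest ratio, 3.41, was listed at 7.12, 8.0 and 6.51 TPM in AdBs24h, against 18.2, 26.5 and 29.1 TPM in AdCtrl24h. Its coefficient of variation was 10.4% in AdBs24h and 23.0% in AdCtrl24h. It was the only member whose highest AdBs24h library was less than 0.5 times the lowest AdCtrl24h library, with a gap of 2.28 times between them. The member of rank 10 by ratio was listed at 6.59, 6.35 and 6.52 TPM in AdBs24h, against 12.1, 17.2 and 13.0 TPM in AdCtrl24h, with a coefficient of variation of 1.90% in AdBs24h. The member of rank 62 was listed at 27.5, 30.0 and 29.4 TPM in AdBs24h, against 40.3, 43.5 and 40.9 TPM in AdCtrl24h. It is 1 of 3 members with a coefficient of variation under 10% in both groups, although its ratio was only 1.43.

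**Figure D2:**
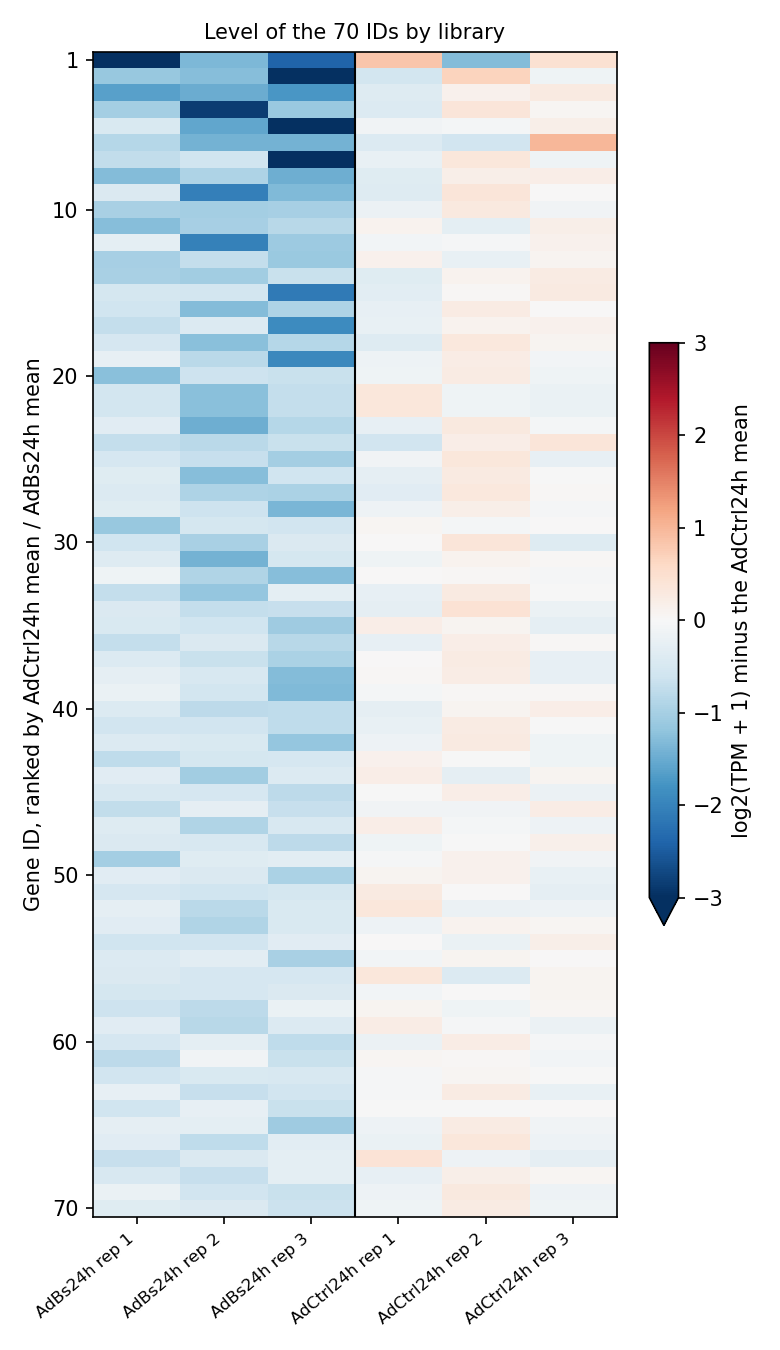
Level of the 70 members (rows, ranked by the ratio of the AdCtrl24h mean to the AdBs24h mean) in each of the 6 libraries (columns), as log2(TPM + 1) minus the mean of the ID over the 3 AdCtrl24h libraries. Every AdBs24h library is lower by the rule, the darkest cells are single AdBs24h libraries of the first 20 rows, and the 4 values listed at 0 are among them.

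For most members the groups lay close to each other. The gap, that is the lowest AdCtrl24h value over the highest AdBs24h value, had a median of 1.15. It was under 1.1 for 26 members, 1.1 to 1.2 for 20, 1.2 to 1.5 for 20 and at least 1.5 for 4. The largest gap among the members with a ratio under 2 was 1.44.

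Each value just outside a threshold is given among the IDs that met every other condition of the rule. The ratio nearest to 1.4 from above was 1.403, from 141, 136 and 116 TPM in AdBs24h and 168, 218 and 165 TPM in AdCtrl24h. The nearest from below was 1.395, from 350, 403 and 264 TPM in AdBs24h and 433, 551 and 435 TPM in AdCtrl24h. The smallest gap of a member was 1.02, between 10.8 TPM in AdBs24h replicate 1 and 11.0 TPM in AdCtrl24h replicate 2. The ID that most narrowly overlapped had 23.13 TPM in AdBs24h replicate 2 and 23.05 TPM in AdCtrl24h replicate 1, a gap of 0.997. The lowest mean over 6 libraries was 10.3 TPM inside and the highest outside was 9.93 TPM.

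The members varied more between replicates than other IDs of the same level range. The median coefficient of variation was 20.9% in AdBs24h and 16.4% in AdCtrl24h for the 70 members, against 7.97% in AdBs24h and 6.92% in AdCtrl24h for the 3476 other IDs. The 63 IDs of the mirrored rule were also more variable than most, with 19.2% in AdBs24h and 12.7% in AdCtrl24h. The 314 IDs that lay entirely lower in AdBs24h with a ratio under 1.4 had medians of 5.10% and 4.65%. For 46 of the 70 members the spread was larger in AdBs24h than in AdCtrl24h. The highest library was at least 2 times the lowest for 17 members (24.3%) within AdBs24h and for 4 members (5.71%) within AdCtrl24h, against 3.88% and 2.30% of the other IDs. These are descriptions, since the rule was applied to the same values.

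**Figure D3:**
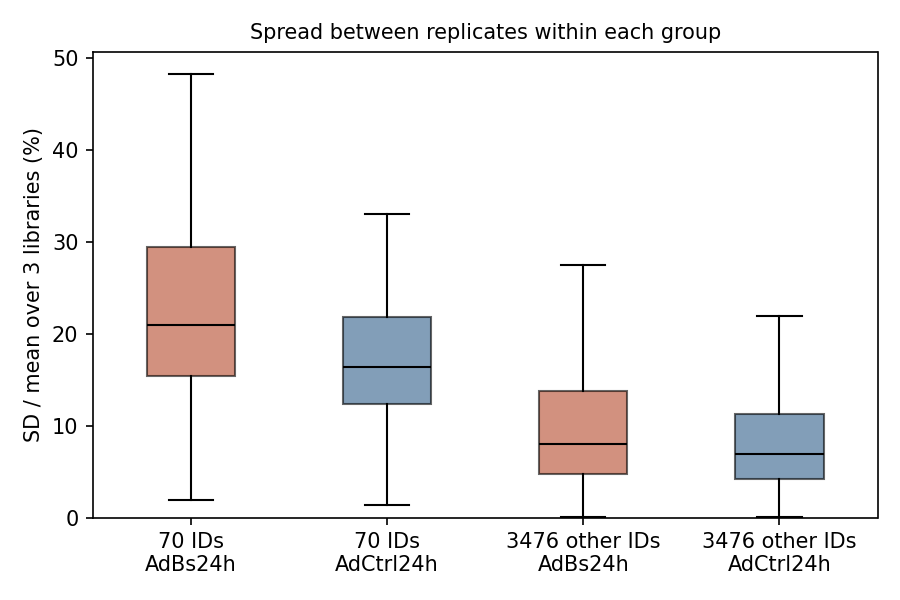
Coefficient of variation over the 3 libraries of each group, in percent, for the 70 members and the 3476 other IDs. Boxes span the quartiles with the median as a line, whiskers reach the farthest value within 1.5 box lengths and points beyond are not drawn. The medians of the members are 20.9% in AdBs24h and 16.4% in AdCtrl24h, above the 7.97% and 6.92% of the other IDs.

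The libraries of a group also differed in how near they lay to the other group, which the rule does not fix. Relative to the AdCtrl24h mean of each ID, the median member stood at 69.1%, 58.6% and 57.7% in AdBs24h replicates 1, 2 and 3, and at 91.1%, 108% and 98.6% in the AdCtrl24h replicates. Within AdBs24h, replicate 1 was the highest library for 42 members (60%), against 27.3% of all 3546 IDs, and the lowest for 12 members. Replicate 2 was the lowest for 28 members and replicate 3 for 30. Within AdCtrl24h, replicate 1 was the lowest library for 40 members (57.1%), against 29.9% of all IDs, and replicate 2 was the highest for 38 members (54.3%), against 31.4%. Replicate 1 was the nearest library to the other group on both sides for 24 members (34.3%), and thus for a minority of them. AdBs24h replicate 1 was highest and AdCtrl24h replicate 1 lowest for 11.4% of all 3546 IDs. The same held for 18.2% of the 314 entirely lower IDs with a smaller ratio. AdBs24h replicate 1 was also the exposed library nearest to the controls in the mirrored set. There it was the lowest of its group for 33 of 63 IDs (52.4%), against 38.7% of all 3546 IDs. The median ID of the mirrored set stood at 158%, 168% and 179% in AdBs24h replicates 1, 2 and 3. The nearness of this library was therefore not limited to the members.

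**Figure D4:**
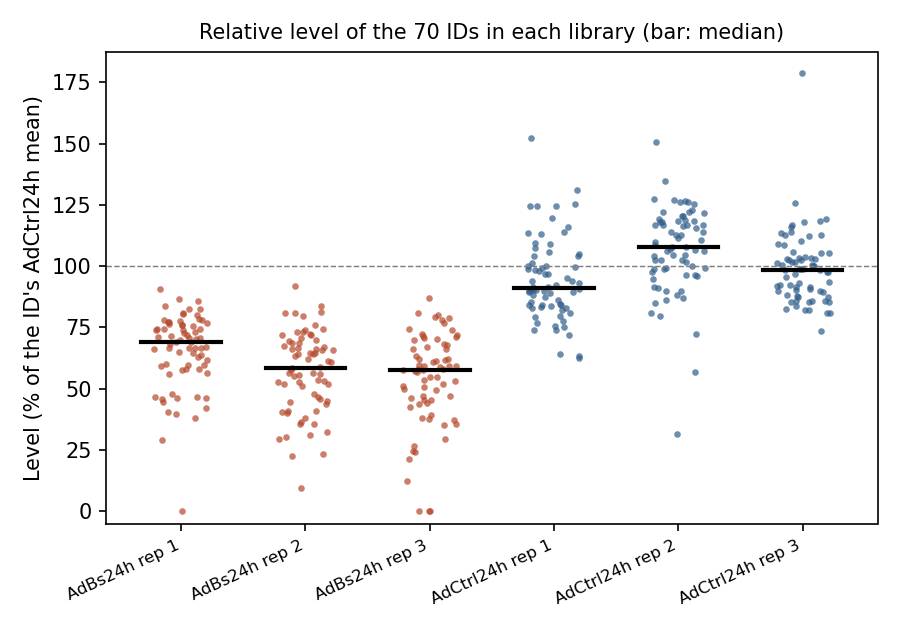
Level of each of the 70 members (points) in each library, in percent of the mean of that ID over the AdCtrl24h libraries, with the median as a bar. The medians are 69.1%, 58.6% and 57.7% in AdBs24h and 91.1%, 108% and 98.6% in AdCtrl24h, so that replicate 1 of each group lies nearest to the other group.

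All 9 combinations of a lowest AdBs24h library and a highest AdCtrl24h library held members. The largest set, 20 members (28.6%, against 14.4% of all 3546 IDs), had AdBs24h replicate 3 lowest and AdCtrl24h replicate 2 highest. Another 15 members (21.4%, against 8.91%), the one with the highest AdCtrl24h mean among them, had AdBs24h replicate 2 lowest and AdCtrl24h replicate 2 highest. A further 9 (12.9%, against 11.8%) had AdBs24h replicate 2 lowest and AdCtrl24h replicate 1 highest. Within this last set, 2 members carried identical values in all 6 libraries, 49.9, 30.5 and 44.5 TPM in AdBs24h and 93.0, 67.2 and 64.1 TPM in AdCtrl24h. Of all 3546 IDs, 6 had the same 6 values as another ID. The members are not independent of each other, and whether IDs of equal values share reads was not tested.

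Across the whole table, limma compared log2(TPM + 1) between the groups for 6315 IDs whose mean reached 1 TPM. At an adjusted p under 0.05 it called 6 IDs (0.095%), 2 of them lower (0.0317%), and 0 of the 70 members. At an unadjusted p under 0.05, 378 IDs were lower (5.99%), 63 of them members. With a fold change of at least 1.5 on the log2(TPM + 1) scale in addition, 123 IDs were lower (1.95%), 41 of them members. The rule used the same contrast, so these overlaps say nothing about the members beyond their selection, and no member is called changed here. Leaving out 1 library at a time kept 57 to 65 of the 70 members under the same rule, and 36 were kept in every such setting. A library left out cannot make the groups of a member overlap, so only the other conditions could remove it. The members were chosen from the same values, and these counts are no test of them. The number of IDs chosen without 1 library was 70 to 136. It was 136 without AdBs24h replicate 1, where 72 other IDs joined, 121 without AdCtrl24h replicate 1 and 106 without AdBs24h replicate 2.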

How the data were processed

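Whole females were sequenced as 3 AdBs24h and 3 AdCtrl24h libraries, mapped to groups by their labels. Read trimming by the authors used Fastp, and HISAT2 2.1.0, StringTie and RSEM served for alignment, assembly and quantification. The deposited values are TPM by the methods, which name DEGseq for the comparison, whereas the submitters' processing notes name DESeq2 1.24.0. A genome build was not stated in the sources used here. The study states the reads of each library, which were not used here. TPM keeps no read counts per ID, so no counting error could be given for a value.

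The 70 members followed the rule given in the report. The members and lists were chosen with earlier results of these data known. For the comparison over all IDs, 173 IDs with several rows had their rows added up, a mean of 1 TPM was required, and log2(TPM + 1) was fitted with limma 3.58.1 in R 4.3.3 (mean-variance trend, robust moderation, Benjamini-Hochberg adjustment). The fit was tested on simulated data with independent noise and planted changes larger than the median change of the members. That run does not show how many changes of the members' size the fit would call. No p-value is given for a member. Only the 2 IDs with the largest ratio were named, because no ID is paired with a gene name. Alternatives were other thresholds, pseudocounts, filters and scalings, a replicate block and each library left out. Gene lists by product name were not run, because no gene names were used.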

Additional observations from a re-analysis of the deposited data

How the results depend on the processing

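The rule gave 70 IDs, 107 with a mean of at least 5, 45 with a mean of at least 20, 46 with a ratio of at least 1.5 and 12 with a ratio of at least 2. Without 1 library it gave 70 to 136. With median ratio scaling it gave 74, all 70 members among them, with the 100 highest IDs kept in 70, and with rows summed 71. Settings chosen after seeing the data gave 69 with identical IDs counted once and 66 without IDs listed at 0. The median log2 difference of the 70 members was -0.68, -0.71 with a pseudocount of 0.1, -0.70 with median ratio scaling and -0.73 to -0.59 without 1 library. Its direction could not turn when a library was left out, because the members do not overlap between groups. The members held 1.80% of the listed TPM in AdBs24h and 2.96% in AdCtrl24h when the 100 highest IDs were left out of the total, which shrinks the denominator.

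By limma, 6 IDs of the whole table passed an adjusted p of 0.05, 3 with a pseudocount of 0.1, 0 with no filter (917 at an unadjusted p under 0.05) and 0 to 5 without 1 library (477 to 841 at an unadjusted p under 0.05). It was 0 without AdBs24h replicate 3 or without AdCtrl24h replicate 2 or 3, 1 without AdBs24h replicate 2 and 3 without AdCtrl24h replicate 1, where 1 member was among them. Of the members, 25 passed the unadjusted thresholds without AdCtrl24h replicate 2, the lowest such count. Over all 6295 IDs tested in that setting, 86 (1.37%) were lower past these thresholds. The rule used the same contrast, so the counts of members say nothing beyond their selection. A fit with a replicate block gave 0 adjusted calls and 617 unadjusted ones, and 36 of the members passed the unadjusted thresholds, against 41 without it. Over all 6315 IDs, 121 (1.92%) were lower past these thresholds with the block and 123 (1.95%) without it. Same-numbered libraries had residual correlations of -0.0779, 0.0883 and -0.0243, against -0.0765 to 0.0991 for libraries of different numbers. With 3 libraries per group, such values cannot show whether the numbers pair the samples. Past the unadjusted thresholds were 247 IDs, and 193 to 348 without 1 library. The causes of these differences were not tested. Without counts per ID, no counting error could be given for any value.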

Other observations

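The numbers of the gene IDs were compared after their values had been seen. Of the 70 members, 9 had an ID number within 5 of that of another member, against 0 of the 63 IDs of the mirrored rule. No such count was made for other sets of 70 IDs, so these values cannot show whether 9 is many. Whether close numbers stand for neighbouring or related genes was not analysed here, and the difference between the sets was not tested.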
